A study of Mus musculus with 6 samples.

Results

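The Hox genes and the antisense transcripts named after their clusters were examined in tumors grown in Esm1 wild-type (WT) and Esm1 knockout (KO) mice. The members were every row of the deposited gene table whose symbol begins with Hoxa, Hoxb, Hoxc or Hoxd, and this rule found 16 of 16729 rows. Of these, 13 were protein-coding genes: 10 of the 11 HoxA genes, Hoxb4 alone of the 10 HoxB genes, none of the 9 HoxC genes, and Hoxd3 and Hoxd4 of the 9 HoxD genes in the GENCODE vM21 annotation. The other 3 were the antisense transcripts Hoxaas3 and Hoxa11os of the HoxA cluster and Hoxd3os1 of the HoxD cluster. In GRCm38 the HoxA members named here lie on chromosome 6 between 52162417 (Hoxa2) and 52260880 (Hoxa13), the coding ones on the minus strand and both antisense transcripts on the plus strand, Hoxb4 lies on chromosome 11 from 96318267 to 96321638, and the HoxD members lie on chromosome 2 between 74703248 and 74748442. Every row of the table had a count in at least 4 of the 6 libraries, so Hox genes seen in fewer libraries were not analysed here.

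The study injected mG7080 cells, a mouse glioblastoma gliomasphere line from mice with mutations that include p53 and Nf1, into the brains of C57BL/6 WT hosts or Esm1 KO hosts and sequenced the RNA of the whole tumors, with 3 libraries per group (WT 1 to 3 and KO 1 to 3). Hosts were 6 to 8 weeks old by the methods, which name C57BL/6J for both the WT and the Esm1 KO mice. The study's reporting form gives an older age range for C57BL/6 mice, and gives all mice as female. Esm1, which encodes the secreted proteoglycan endocan, was deleted in the host only, so the injected cells carried an intact Esm1 gene in both groups, and reads from injected and host cells were not separated. All tumors came from 1 cell line, and the libraries held 17632070 to 22241832 counts. The design text gives 3 mice per group.

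Hox genes encode homeodomain transcription factors that set the position of cells along the head-to-tail axis of the embryo. In mammals they lie in the HoxA, HoxB, HoxC and HoxD clusters, where genes with low paralog numbers are generally used toward the hindbrain and those with high numbers toward the tail and limbs, and the adult forebrain normally keeps them silent through Polycomb complexes. Trithorax/MLL complexes keep them active, Pbx and Meis proteins bind DNA with them, retinoic acid can switch on the low-numbered genes, and HOXA genes are known to be active in part of glioblastomas and in some leukemias.

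The 250 bases before the RefSeq transcript start (GRCm38, the mm10 build) are shown for 6 members that carry the results: Hoxa5, with the highest level per length in WT hosts; Hoxa13, the tested member not called in the main comparison; and Hoxa2, Hoxa7, Hoxd3 and Hoxd4, the members with a motif match in these bases. Hoxa5 is chr6:52204588-52204837, Hoxa13 chr6:52260881-52261130, Hoxa2 chr6:52164832-52165081 and Hoxa7 chr6:52218574-52218823, all on the minus strand. Hoxd3 is chr2:74711743-74711992 and Hoxd4 chr2:74721728-74721977, both on the plus strand. Capitals mark matches, on either strand, to TGATNNAT, the letters of the joint Hox and Pbx site, or TTTATNA, letters preferred by Hox proteins of high paralog number and by Cdx proteins.
Hoxa5: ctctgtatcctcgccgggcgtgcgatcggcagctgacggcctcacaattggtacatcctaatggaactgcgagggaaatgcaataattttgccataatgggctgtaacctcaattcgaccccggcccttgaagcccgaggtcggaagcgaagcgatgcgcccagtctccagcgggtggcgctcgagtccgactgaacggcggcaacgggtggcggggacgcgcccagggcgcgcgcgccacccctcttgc
Hoxa13: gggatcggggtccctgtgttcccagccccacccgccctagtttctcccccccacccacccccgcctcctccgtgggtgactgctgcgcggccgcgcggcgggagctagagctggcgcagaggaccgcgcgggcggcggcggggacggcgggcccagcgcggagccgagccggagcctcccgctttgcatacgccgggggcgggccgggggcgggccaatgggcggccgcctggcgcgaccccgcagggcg
Hoxa2: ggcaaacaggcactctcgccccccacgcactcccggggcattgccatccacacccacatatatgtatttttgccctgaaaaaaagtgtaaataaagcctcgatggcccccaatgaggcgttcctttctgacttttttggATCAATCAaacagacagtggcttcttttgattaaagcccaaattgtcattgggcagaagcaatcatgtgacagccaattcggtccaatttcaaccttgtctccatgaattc
Hoxa7: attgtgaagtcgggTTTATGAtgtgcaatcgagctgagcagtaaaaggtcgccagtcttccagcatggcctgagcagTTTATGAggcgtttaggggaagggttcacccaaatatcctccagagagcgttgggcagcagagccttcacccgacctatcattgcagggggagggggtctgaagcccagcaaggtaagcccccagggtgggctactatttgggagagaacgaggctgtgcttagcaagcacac
Hoxd3: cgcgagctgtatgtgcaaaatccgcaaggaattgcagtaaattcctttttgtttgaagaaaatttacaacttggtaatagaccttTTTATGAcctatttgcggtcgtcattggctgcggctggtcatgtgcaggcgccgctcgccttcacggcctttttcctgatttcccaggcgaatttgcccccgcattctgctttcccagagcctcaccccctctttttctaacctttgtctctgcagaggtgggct
Hoxd4: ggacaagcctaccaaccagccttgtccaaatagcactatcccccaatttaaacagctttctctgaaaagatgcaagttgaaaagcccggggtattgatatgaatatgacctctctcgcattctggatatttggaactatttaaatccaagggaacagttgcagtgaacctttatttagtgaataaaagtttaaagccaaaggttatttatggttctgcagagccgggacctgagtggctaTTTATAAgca

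RefSeq promoter windows of 300 bases (250 before and 50 after the start) were found for 13 of the 16 members, with 14 windows because Hoxa10 has a pair of starts. Hoxa4 and Hoxaas3 were among those without a window. TTTATNA matched in 3 of the 14 windows (Hoxa7, Hoxd3 and Hoxd4) and in 14.1% of all 32851 windows. TGATNNAT matched in 1 of 14 (Hoxa2) against 8.85% of all windows, and the E-box CACGTG in 1 of 14 (Hoxd4, past the start and so not in the stretch printed above) against 7.15%. The windows held a median of 17 CpG dinucleotides, with a median of 7 over all windows. They ranged from 4 CpGs at Hoxa9 and Hoxd4 to 45 at Hoxa13. These matches describe letters in these windows only.

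Before the Hox values, Esm1 was read in every library. Its level was 1.19, 1.09 and 4.05 CPM (counts scaled to the TMM library size) in WT 1, WT 2 and WT 3. In KO 1, KO 2 and KO 3 it was 0.0570, 1.07 and 0.208 CPM. The library labelled KO 2, with 24 Esm1 counts, thus had about as much Esm1 as WT 1 and WT 2. The injected cells carried an intact Esm1 gene and their reads were not separated from host reads, so Esm1 cannot test the label. KO 2 stands in what follows for a library known by its label alone, and results are given with and without it. The main comparison used WT 1, WT 2, KO 1 and KO 3, the 4 libraries named in the study's own comparison table, and Esm1 was lower there in KO (log2 fold change -3.02 ± 0.64 SE, adjusted p = 0.0425, edgeR quasi-likelihood test), a call lost without WT 2, without KO 1 or without KO 3. KO 1 and KO 3 also stood apart from the other libraries in markers of other cells, as given below beside the results.

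In WT hosts the Hox signal was almost wholly HoxA. The 16 members together had 86.3, 173 and 172 CPM in WT 1, WT 2 and WT 3, from 1813, 3346 and 3488 counts. HoxA transcripts made up 92.2% (95% exact interval 90.8 to 93.4), 93.7% (92.8 to 94.5) and 94.4% (93.5 to 95.1) of these counts, and HoxD transcripts 7.50%, 5.98% and 5.42%. WT 1 was the lowest WT library for 14 of the 16 members. Intervals on counts cover counting error only, since reads were not marked by molecule.

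Per kilobase of exon (GENCODE), the WT levels ran from Hoxa5 (13.2 ± 5.70 CPM per kb, SD, n = 3), Hoxa10 (9.36 ± 2.83) and Hoxa7 (7.82 ± 3.06) through Hoxa2 (6.46 ± 1.95), Hoxa6 (5.33 ± 2.17) and Hoxa4 (3.99 ± 1.17). Hoxa3 (2.25 ± 1.05 CPM per kb), Hoxa9 (1.83 ± 0.808), Hoxd4 (1.63 ± 0.258) and Hoxa13 (1.62 ± 0.933) came next. Hoxaas3 (0.906 ± 0.481 CPM per kb) and Hoxd3 (0.831 ± 0.309) stood above Hoxb4 (0.162 ± 0.0556), Hoxd3os1 (0.144 ± 0.0720) and Hoxa11os (0.122 ± 0.0440). The WT ranges of neighbours in this order overlapped at every step except between Hoxd3 and Hoxb4. By the FPKM values of the authors, which rest on other gene lengths, Hoxa10 came first (15.2 ± 5.0 FPKM) and Hoxa5 second (14.2 ± 6.34 FPKM).

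Hox transcripts were nearly absent from KO 1 and KO 3. The summed level was 6.56 CPM (115 counts) in KO 1 and 0.104 CPM (2 counts) in KO 3, which is 4.56% and 0.0724% of the WT mean of 144 ± 49.8 CPM (SD, n = 3). KO 1 exceeded KO 3 by 63.0-fold (95% exact interval 17.0 to 526, counting error). The library labelled KO 2 had 103 CPM (2316 counts), or 71.7% of the WT mean, between WT 1 and the other WT libraries. How many injected cells each library held was not measured, so a lower number of them in KO 1 and KO 3 and a lower Hox level within them cannot be told apart in any of the fold changes that follow. Over all 3 KO libraries the mean was 36.6 ± 57.7 CPM (SD, n = 3).

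In KO 3, 14 of the 16 members had no count and the other two, Hoxa5 and Hoxd4, had 1 count each, whereas 0.849% of all rows had no count there. A count of 0 in KO 3 allows a level of up to 0.156 CPM. In KO 1, 3 members had no count, the antisense transcripts Hoxaas3, Hoxa11os and Hoxd3os1. KO 1 and KO 3 were both below all 3 WT libraries for 16 of 16 members, as they were for 39.7% of all rows.

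**Figure D1:**
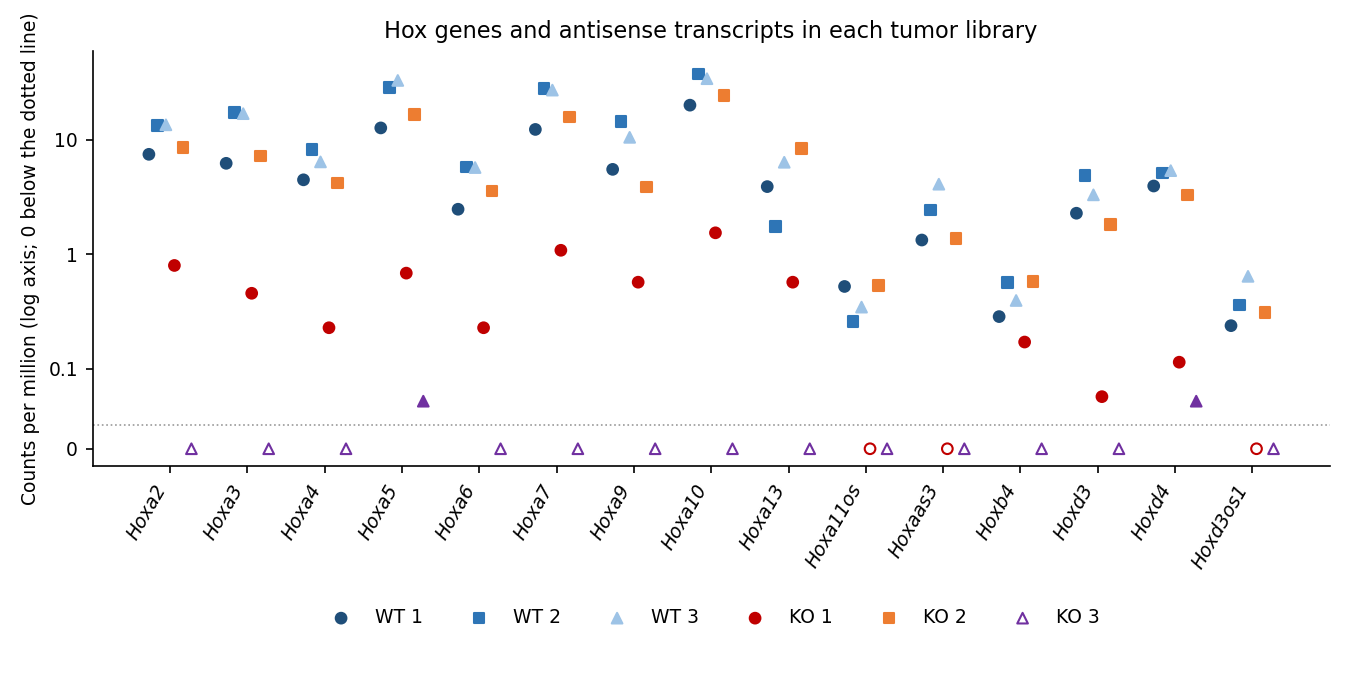
Level of 15 members in each library, in CPM on a log axis, with open symbols below the dotted line for libraries without a count. Points for KO 1 lie below the WT points for every member shown, and KO 3 shows a count only for Hoxa5 and Hoxd4.

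Over the 4 libraries, 12 of the 13 members tested were lower in KO at an adjusted p below 0.05 (edgeR quasi-likelihood test), and each of the 12 by more than 4-fold. Of all 16183 genes tested, 13.9% were lower, 6.23% were lower by more than 4-fold, and 2.87% were higher. The tested members had a median log2 fold change of -5.69, or -5.26 with Hoxaas3 at the bound that its count of 0 allows, beside -0.03 over all genes tested. All 13 passed the filter on low counts through both WT libraries and at most 1 KO library, so the filter itself favoured members that were high in WT, and these figures are given as a description. Hoxb4, Hoxa11os and Hoxd3os1 were too low to be tested. Without KO 3 the members called were Hoxa5, Hoxa7, Hoxa10 and Hoxd4 (4 of 15 tested), and without WT 2 there were 7 of 13. Without WT 1 there were 12 of 13, and without KO 1 there were 13 of 15.

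The genes of the 3' end of HoxA pattern the hindbrain and are the ones most directly switched on by retinoic acid. Hoxa2, which specifies the cranial neural crest and hindbrain, had 7.47, 13.4 and 13.5 CPM in the WT libraries and 0.799, 8.59 and 0 CPM in KO 1, KO 2 and KO 3. Hoxa3, needed for the thymus and parathyroid, had 6.23, 17.4 and 16.9 CPM in WT and 0.456, 7.21 and 0 CPM in KO. In both, KO 1 and KO 3 did not overlap the WT libraries, while the library labelled KO 2 lay inside the WT range. The log2 fold changes over 4 libraries were -4.73 ± 1.13 SE for Hoxa2 (adjusted p = 0.0496, edgeR) and -5.71 ± 1.14 SE for Hoxa3 (adjusted p = 0.0402).

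The middle genes, Hoxa4 to Hoxa7, gave the largest block of Hox counts in WT, 37.1 to 42.0% of the total. Hoxa5, which acts in the lung, the cervical skeleton and the brainstem, had 12.7, 28.7 and 33.0 CPM in WT and 0.685, 16.7 and 0.0521 CPM in KO 1, KO 2 and KO 3. Hoxa7 had 12.3, 28.0 and 27.2 CPM in WT and 1.08, 15.8 and 0 CPM in KO. Both fell by more than 1 order of magnitude from the lowest WT library to KO 1, with the library labelled KO 2 inside the WT range. Hoxa4 had 4.47, 8.22 and 6.41 CPM in WT and 0.228, 4.18 and 0 CPM in KO. Hoxa6 had 2.47, 5.79 and 5.72 CPM in WT and 0.228, 3.56 and 0 CPM in KO. The library labelled KO 2 lay just below the WT libraries for Hoxa4 and inside their range for Hoxa6. Log2 fold changes over 4 libraries were -5.78 ± 0.96 SE for Hoxa4, -5.84 ± 0.94 for Hoxa5, -5.16 ± 1.04 for Hoxa6 and -5.25 ± 1.19 for Hoxa7, with adjusted p from 0.0343 to 0.0467 (edgeR).

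Hoxa9 and Hoxa10 are the HoxA genes best known from MLL-rearranged leukemia, where Hoxa9 works with Meis1. Hoxa10 had the most counts of any member, at 20.1, 37.5 and 34.2 CPM in WT and 1.54, 24.4 and 0 CPM in KO 1, KO 2 and KO 3. Hoxa9 had 5.52, 14.5 and 10.5 CPM in WT and 0.570, 3.87 and 0 CPM in KO, so that all 3 KO libraries lay below all 3 WT libraries. Log2 fold changes over 4 libraries were -5.16 ± 1.16 SE for Hoxa9 (adjusted p = 0.0462, edgeR) and -5.26 ± 1.19 SE for Hoxa10 (adjusted p = 0.0464). Hoxa9 was the tested member lowest over all 6 libraries (-2.78 ± 1.30 SE, adjusted p = 0.195).

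Hoxa13, the gene at the 5' end of HoxA that patterns the hand plate and the genital and urinary tract, was the coding HoxA gene for which the library labelled KO 2 exceeded every WT library. It had 3.90, 1.76 and 6.36 CPM in WT 1, WT 2 and WT 3. In KO 1, KO 2 and KO 3 it had 0.570, 8.41 and 0 CPM. That highest value was 210% of the WT mean. WT 2, the highest WT library for 9 members, was the lowest for Hoxa13. Over 4 libraries Hoxa13 was the tested member that did not pass (log2 fold change -3.33 ± 1.13 SE, adjusted p = 0.0837, edgeR), and its value over all 6 was -0.43 ± 1.48 SE (adjusted p = 0.834). The non-coding Hottip, transcribed from beside Hoxa13 and known to help keep the 5' HoxA genes active, had 1.05, 0.620 and 2.81 CPM in WT and 0.171, 3.34 and 0 CPM in KO. Its lowest WT library and its highest library of all were the same ones as for Hoxa13.

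The share of the Hox counts taken by each gene was compared next. Hoxa13 took 4.52% (3.61 to 5.58), 1.02% (0.705 to 1.42) and 3.70% (3.10 to 4.38) of the Hox counts in WT 1, WT 2 and WT 3. Its share was 8.70% (4.25 to 15.4) in KO 1 and 8.16% (7.08 to 9.35) in KO 2. The KO 1 interval overlapped those of WT 1 and WT 3, and the interval of the library labelled KO 2 overlapped none of the WT ones. Hoxa9 took 6.40% (5.32 to 7.62), 8.40% (7.48 to 9.39) and 6.11% (5.33 to 6.95) in WT. It took 8.70% (4.25 to 15.4) in KO 1, overlapping all 3 WT intervals, and 3.76% (3.02 to 4.61) in KO 2, below them. Hoxa10 stayed between 19.9 and 23.7% in the 5 libraries with over 100 Hox counts. With 2 Hox counts, KO 3 gave no usable share.

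**Figure D2:**
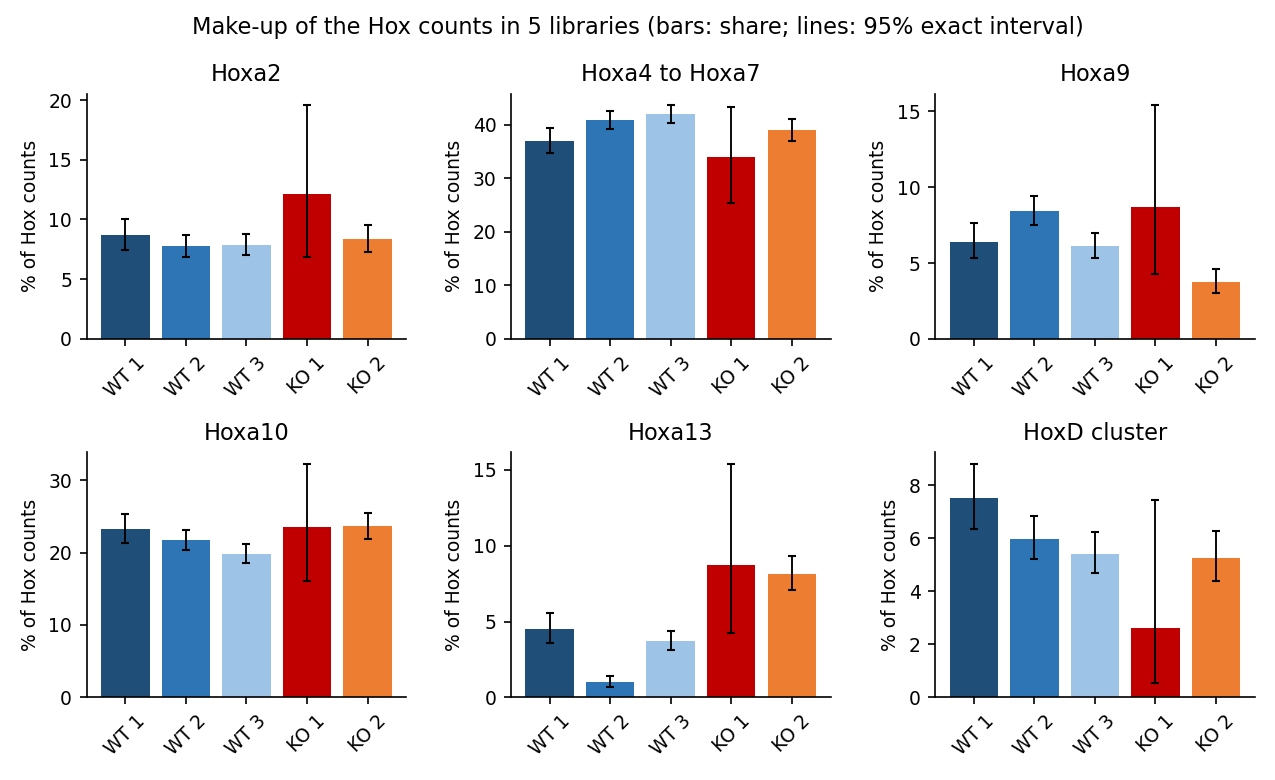
Share of all Hox counts, in percent, taken by a HoxA segment, single genes and the HoxD cluster in 5 libraries, with 95% exact intervals for counting error; KO 3, with 2 Hox counts, is left out. Hoxa13 ranges from 1.02% in WT 2 to 8.70% in KO 1, while Hoxa10 stays between 19.9 and 23.7%.

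Outside HoxA, Hoxd3 and Hoxd4, genes of the neck vertebrae and hindbrain, were also nearly absent from KO 1 and KO 3. Hoxd3 had 2.28, 4.86 and 3.31 CPM in WT and 0.0570, 1.83 and 0 CPM in KO 1, KO 2 and KO 3. Hoxd4 had 3.95, 5.12 and 5.38 CPM in WT and 0.114, 3.29 and 0.0521 CPM in KO. For both genes all 3 KO libraries lay below all 3 WT libraries. The WT 1 and WT 2 counts against those of KO 1 and KO 3 were 142 against 1 for Hoxd3, a 129-fold ratio (95% counting interval 22.8 to 5140), and 182 against 3 for Hoxd4, a 55.2-fold ratio (18.6 to 270). Both were called over 4 libraries (adjusted p = 0.0343 for each, edgeR). The annotated exons of Hoxd3 and Hoxd4 share 388 bases, 13.2% of the Hoxd4 exon length, so their counts are not fully separate.

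Hoxb4, known for its role in blood stem cells, was near the limit of detection, with 6, 11 and 8 counts in WT and 3, 13 and 0 counts in KO 1, KO 2 and KO 3. The library labelled KO 2 was the highest, and the WT 1 and WT 2 counts exceeded those of KO 1 and KO 3 by 5.16-fold (95% counting interval 1.49 to 27.5). It was the member least reduced in KO 1, at 41.1% of its WT mean.

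The antisense transcripts had no count in KO 1 or KO 3. Hoxaas3, which runs on the plus strand through the middle of HoxA, had 1.33, 2.43 and 4.09 CPM in WT and 1.38 CPM in KO 2. Against a floor of 3 counts over KO 1 and KO 3, it was at least 22.8-fold lower than in WT 1 and WT 2 (adjusted p = 0.0343, edgeR). Hoxa11os had 11, 5 and 7 counts in WT and 12 in KO 2, and was at least 4.85-fold lower in KO 1 and KO 3. Hoxd3os1 had 5, 7 and 13 counts in WT and 7 in KO 2, and was at least 3.64-fold lower. The antisense transcripts took 1.76 to 2.95% of the Hox counts in WT and 2.16% in KO 2, while a count of 0 among 115 in KO 1 allows a share of up to 3.16% (95% exact interval). Hoxaas3 shares 586 exon bases with Hoxa7 and 297 with Hoxa3, Hoxa11os shares 800 with Hoxa11, and Hoxd3os1 shares 347 with Hoxd3 and Hoxd4. Whether the counting used strand is not given in the sources used here, so antisense and sense reads in those stretches cannot be told apart.

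Over all 6 libraries no member passed, and no gene did: 0% of 16166 genes were lower at the adjusted threshold (edgeR quasi-likelihood test). At an unadjusted p below 0.05, 0 of 13 members passed, while 11.9% of genes were lower and 15.2% higher. The lowest unadjusted p of a member was 0.0747. The members' log2 fold changes ran from -2.78 (Hoxa9) to -0.43 (Hoxa13), with a median of -2.10 beside -0.02 over all genes. After adjustment DESeq2 called 1182 genes, the edgeR exact test 188 and limma-voom none, with no member among them. DESeq2 gave no adjusted p for Hoxa2, Hoxa3, Hoxa7 and Hoxa10, so those 4 could not be called by it.

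Leaving out the library labelled KO 2 gave 13 of 13 tested members lower, Hoxa13 included (log2 fold change -3.82, adjusted p = 0.0321, edgeR). The adjusted p ran from 0.00798 to 0.0321 and the median log2 fold change was -5.77. In that set of 5 libraries 28.3% of all genes were lower and 24.5% higher.

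Within the library labelled KO 2, 5 members (among them Hoxa4, Hoxa9, Hoxd3 and Hoxd4) lay below all WT libraries, 8 lay inside the WT range and 3 (Hoxa13, Hoxa11os and Hoxb4) lay above it. Over all rows these shares were 21.2%, 54.4% and 24.5%. The same 5 members were those with all 3 KO libraries below all 3 WT libraries, as 14.3% of all rows were.

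**Figure D3:**
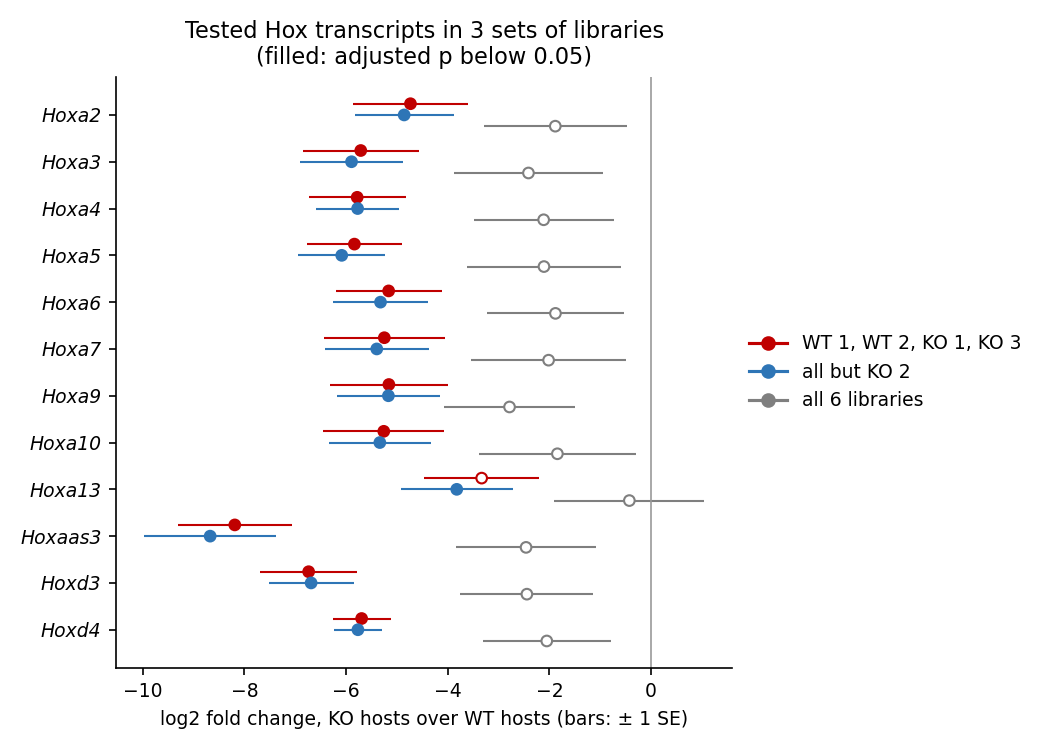
Log2 fold change (KO over WT) ± 1 SE of 12 of the 13 tested members in 3 sets of libraries, filled where the adjusted p (edgeR) is below 0.05. With all 6 libraries the values lie between -2.78 and -0.43 and none is filled. Without the library labelled KO 2 all 12 shown are filled.

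Other groups of genes were also lowest in KO 3 and KO 1. The 8 proliferation genes had a summed level of 1079, 1930 and 1864 CPM in WT and 97.5, 1188 and 16.7 CPM in KO 1, KO 2 and KO 3, or 6.00%, 73.2% and 1.03% of the WT mean, and none was at 0 in any library. Over 4 libraries 7 of 8 were lower (edgeR), from Cdk1 (-5.23 ± 0.86 SE) to Plk1 (-3.89 ± 0.56 SE). The 5 Y-linked genes Ddx3y, Kdm5d, Eif2s3y, Uty and Uba1y, added after their values were seen, had a summed level of 114, 129 and 190 CPM in WT and 11.2, 181 and 0.104 CPM in KO 1, KO 2 and KO 3. That is 7.79%, 125% and 0.0722% of the WT mean, and in KO 3 only Uty had a count. The study's reporting form gives all hosts as female, and which cells these reads came from was not tested. The 10 neuron markers went the other way, with 5139, 1707 and 3087 CPM in WT and 11639, 4382 and 14118 CPM in KO. The 8 oligodendrocyte markers had 3347, 1321 and 1890 CPM in WT and 7489, 3212 and 3860 CPM in KO.

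The summed levels of the neuron and of the oligodendrocyte markers were highest in KO 1 and KO 3, though KO 3 was below WT 1 for Gad2, Mobp, Cldn11 and Cnp, and 0 of 10 and 0 of 8 were called over 4 libraries (edgeR). At an unadjusted p below 0.05, 8 and 0 were higher, and DESeq2 called 9 and 2 higher after adjustment. Whether KO 3 held injected tumor cells in more than trace number was not tested, nor was the part of the other cells and of proliferation in the Hox result.

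Of the other marker lists, 4 of 8 microglia and macrophage markers were lower and none higher over WT 1, WT 2, KO 1 and KO 3. Their summed level was 797, 788 and 751 CPM in WT and 494, 1079 and 457 CPM in KO 1, KO 2 and KO 3. In the same 4 libraries 0 of 8 endothelial markers were called (2 higher at an unadjusted p below 0.05 in edgeR and none by DESeq2). Astrocyte markers gave 1 of 6 lower and 1 higher. Blood progenitor and granulocyte markers gave 1 of 5 lower and 1 higher. Ptprc (CD45) fell (-2.60 ± 0.36 SE, adjusted p = 0.0343) and Cd34 rose (1.13 ± 0.17 SE, adjusted p = 0.0343), and S100a8 had no count in KO 2. None of the calls of these 4 lists was kept without KO 3, and without KO 1 those on Cd68 and Ptprc were.

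**Figure D4:**
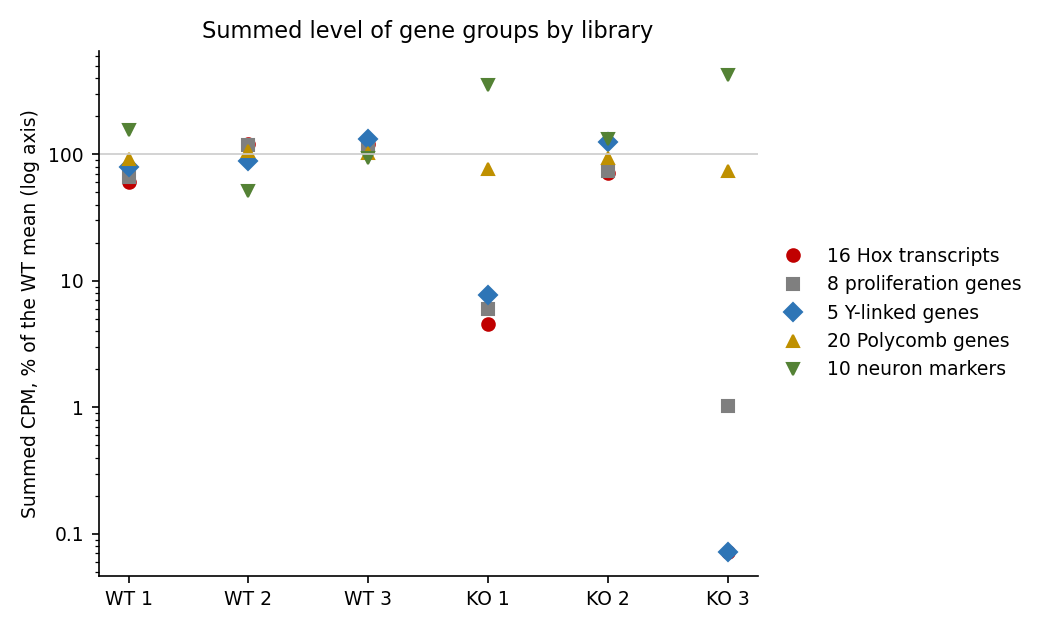
Summed CPM of 5 gene groups in each library, in percent of the mean of the 3 WT libraries on a log axis. The Hox transcripts stand at 4.56%, 71.7% and 0.0724% in KO 1, KO 2 and KO 3, beside 6.00%, 73.2% and 1.03% for the proliferation genes.

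Among all rows, 15 genes had no count in KO 3 and at least 100 counts in each WT library, and 5 of them were members (Hoxa2, Hoxa3, Hoxa7, Hoxa9 and Hoxa10). The others, named after their values were seen, included 4 Y-linked genes, the homeobox genes Irx2 and Irx5, the T-box gene Tbx4, and Mira. Mira, a non-coding RNA from between Hoxa6 and Hoxa7, had 9.28, 18.8 and 19.9 CPM in WT and 0.685, 11.7 and 0 CPM in KO 1, KO 2 and KO 3. Irx5 had 165, 339 and 315 counts in WT and 11, 290 and 0 counts in KO. Tbx4 had 201, 256 and 341 counts in WT and 16, 226 and 0 counts in KO.

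Mira was lower over 4 libraries (-5.38 ± 1.11 SE, adjusted p = 0.0416, edgeR). Apart from Mira, 1 of 2 tested non-coding transcripts at the clusters that bear other names was lower. Halr1 of the HoxA cluster had 2.95, 4.65 and 3.55 CPM in WT and 0.171, 1.34 and 0 CPM in KO and was lower over 4 libraries (-5.43 ± 0.91 SE, adjusted p = 0.0343, edgeR), though not without KO 3. Hottip was not called (-3.26 ± 0.99 SE, adjusted p = 0.0704). Haglr of the HoxD cluster had 9, 9 and 15 counts in WT and 2, 13 and 3 counts in KO, was too low for the 4-library fit and had -0.91 ± 0.66 SE over all 6 (adjusted p = 0.335, edgeR).

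The coding genes that flank the clusters had counts in every library. Beside HoxA, Skap2, a Src kinase adaptor, fell by 2.70 on the log2 scale (SE 0.41, adjusted p = 0.0343) and Snx10 had 0.38 (SE 0.25), with 1 of 5 called. Skap2 had 80.3, 168 and 178 CPM in WT and 21.6, 99.9 and 17.0 CPM in KO, with KO 1 and KO 3 below the WT libraries. Beside HoxB, 1 of 5 was called, Cbx1 (-1.06 ± 0.24 SE), and Snx11 had the highest value (0.20 ± 0.18 SE). Beside HoxC, 1 of 5 was called, Hnrnpa1 (-1.17 ± 0.28 SE, adjusted p = 0.0498), a call lost under RLE scaling, with no filter and in limma-voom and kept by DESeq2, with values from -1.41 (Atp5g2) to -0.27 (Calcoco1). Beside HoxD, 0 of 4 were called, with 2 higher at an unadjusted p below 0.05 and none called by DESeq2, and values from -0.29 (Mtx2) to 0.63 (Lnp and Atf2). Of the calls on flanking genes none was kept without KO 3, and only that on Skap2 without KO 1.

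Of the 9 TALE cofactors of Hox proteins, 1 fell and 1 rose. Meis1, the partner of Hoxa9, fell by 1.64 on the log2 scale (SE 0.33, adjusted p = 0.0402), from 14.4, 19.4 and 19.2 CPM in WT to 6.45, 19.0 and 4.48 CPM in KO. Meis2, which is used in forebrain neurons, rose by 1.22 (SE 0.27, adjusted p = 0.0461), from 118, 79.1 and 81.8 CPM to 250, 88.4 and 213 CPM. The other 7 of 9 cofactors, the Pbx genes among them, did not pass, and 4 cofactors were higher and 2 lower at an unadjusted p below 0.05. Both calls were lost without KO 1 and without KO 3.

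Of the Polycomb genes, which encode the complexes that silence Hox clusters, 7 of 20 were lower over 4 libraries and none higher (edgeR). At an unadjusted p below 0.05 (edgeR), 8 were lower and 4 higher, and DESeq2 called 8 lower and 2 higher after adjustment. Ezh2, the H3K27 methyltransferase, fell from 76.1, 123 and 117 CPM in WT to 13.9, 81.4 and 6.30 CPM in KO (log2 fold change -3.32 ± 0.48 SE, adjusted p = 0.0343). Phf19 (-2.98 ± 0.59 SE) and Cbx2 (-2.78 ± 0.49 SE) fell by similar amounts, Eed (-1.13 ± 0.24) and Bmi1 (-1.05 ± 0.21) by less, and Cbx7 had the highest value (0.88 ± 0.28, adjusted p = 0.0767). Without KO 3 the call on Ezh2 alone was kept, and without KO 1 those on Ezh2, Phf19 and Cbx2. Of the Trithorax/MLL and related activating genes, 2 of 10 were lower, Kdm6b (-1.12 ± 0.19 SE), an H3K27 demethylase, and Ash2l (-1.02 ± 0.20 SE), and Dot1l had the highest value (0.26 ± 0.18 SE). Neither of these calls was kept without KO 1 or without KO 3.

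The retinoic acid genes gave 0 of 13 called over 4 libraries (edgeR), where an unadjusted p below 0.05 gave 2 lower and 2 higher genes, and DESeq2 called 1 lower and 1 higher. Values ran from Crabp1 (-1.53 ± 0.52 SE), a binding protein, to the receptor Rarb (1.17 ± 0.57 SE). Transcription factors of forebrain and midbrain patterning, which act in regions where Hox genes are normally silent, gave 3 of 16 higher and 2 lower. At an unadjusted p below 0.05 (edgeR), 7 were higher and 3 lower. DESeq2 likewise called 7 higher and 3 lower after adjustment. Their median log2 fold change was 0.64 over 4 libraries, 0.26 without KO 1 and 1.16 without KO 3. The forebrain genes Emx2 (1.91 ± 0.32 SE, adjusted p = 0.0343), Lhx2 (1.66 ± 0.37 SE) and Dlx1 (1.17 ± 0.25 SE) rose, and Emx1 had the highest value (2.51 ± 0.66 SE, adjusted p = 0.0573). En1 had 17, 38 and 45 counts in WT and 1, 32 and 1 counts in KO 1, KO 2 and KO 3. Gbx2 had 75, 83 and 73 counts in WT and 9, 53 and 2 counts in KO. Over 4 libraries En1 (-4.52 ± 0.83 SE, adjusted p = 0.0364, edgeR) and Gbx2 (-3.68 ± 0.69 SE, adjusted p = 0.0369), genes of the midbrain and hindbrain border, fell. That left 11 of 16 not called, and without KO 3 none of the 16 was called. Over all 6 libraries none of the cofactor, Polycomb, activating, retinoic acid or patterning genes was called (edgeR), with 3 of 9, 7 of 20, 2 of 10, 3 of 13 and 5 of 16 at an unadjusted p below 0.05.

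**Figure D5:**
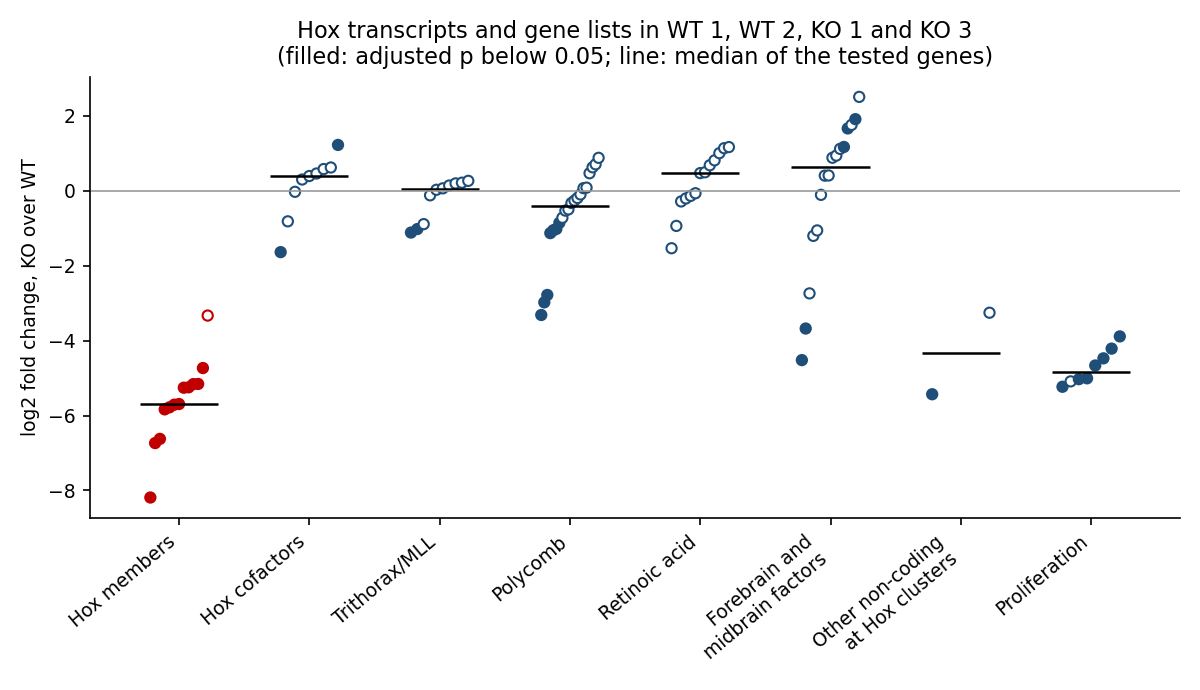
Fold changes on the log2 scale in the 4-library comparison for the tested Hox transcripts and for genes of other lists, 1 point per gene, filled where the adjusted p (edgeR) is below 0.05, with the median as a line. The Hox median is -5.69, and the cofactors run from -1.64 to 1.22.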

How the data were processed

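Whole-tumor RNA was extracted with TRIzol and sequenced in 6 libraries (3 WT hosts, 3 Esm1 KO hosts). Per the labels the libraries were made with a NEBNext Ultra kit and aligned to mm10, with CASAVA 1.8.2 and edgeR named as tools, whereas the paper's methods name an Ovation kit, HTSeq and a human build. The chromosomes and transcripts of the table are mouse. The authors deposited read counts per gene, not normalized, and FPKM values (fragments scaled to transcript length and depth); their columns of fold changes, p-values and normalized counts were not used. Groups came from the sample titles.

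Counts were scaled by TMM and genes filtered with filterByExpr (minimum count 10, minimum total 15). The quasi-likelihood test of edgeR 4.0.16 (R 4.3.3) was fitted on the whole table with Benjamini-Hochberg adjustment, called at an adjusted p below 0.05, over WT 1, WT 2, KO 1 and KO 3 and over all 6 libraries; the scripts were tested on simulated data. CPM values use TMM factors over all 6 libraries before filtering, whereas each fit computed its own factors after filtering. In these CPM values 1 count is worth 0.0445 to 0.0570 CPM. Intervals are exact binomial at 95%, and a count of 0 was set to a floor of 3 counts. DESeq2 1.42.0, limma 3.58.1 (voom), other scalings, no filter, left-out libraries and a replicate block were alternatives. No pair of libraries agreed within counting noise. Promoter windows were RefSeq's on GRCm38.p6, and gene models GENCODE vM21.

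Every member is named; of each other list the lowest and highest fold change and up to 4 more called genes. The members and lists were chosen with earlier results of these data known. Values of 1 member are not reported here, though counts and sums over the members include it.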

Additional observations from a re-analysis of the deposited data

How the results depend on the processing

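The count of genes called over 4 libraries (2708) became 5839 with DESeq2 and 5885 with the edgeR exact test, and ran from 252 to 8748 when 1 library was left out. Of the 13 members tested, 12 were called, and 9 with DESeq2, 13 with the exact test and 4 to 13 with 1 library left out, lowest without KO 3. The count of 2708 was within 1.5 times under RLE or upper quartile scaling, no filter and limma-voom, and the members' count was 12 under each. Over all 6 libraries the count of genes called (0) became 1182 with DESeq2 and 188 with the exact test. With 1 library left out it was 0, except 8594 without the library labelled KO 2, and the members called were likewise 0 or, without that library, 13.

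Of 130 values of single members over 4 libraries under alternatives, 110 kept their direction and side of the threshold, 17 lost and 3 gained the call, and none changed sign; where a call changed, the cause was not tested, beyond the smaller number of libraries in the left-out fits. Over all 6 libraries the sign of Hoxa13 changed without WT 3 (0.09), KO 1 (0.06) and KO 3 (0.15), with a range over all left-out libraries of -3.82 to 0.15.

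Samples with the same replicate number did not deviate together in every pair (correlations 0.553, 0.596 and -0.210), so the numbers were not taken to pair the samples. With the replicate block, 0 genes and 0 members were called over all 6 libraries.

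At these depths 1 count is worth 0.0445 to 0.0570 CPM, which leaves Hoxb4, Hoxa11os and Hoxd3os1 too low to test. With 2 libraries per group and 1 line of tumor cells, the calls rest on the spread between 4 samples, and leaving one out leaves a lone library that is taken to vary like the other group.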
